A study of Mus musculus with 12 samples.

Results

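The amino acid transporter genes described here are the members of 7 solute carrier families, Slc1, Slc3, Slc6, Slc7, Slc36, Slc38 and Slc43, chosen by their gene symbols alone. Among the 24562 genes in the table of read counts, 66 carry such a symbol. Of these, 63 encode carriers, and 3, Slc36a1os, Slc6a19os and Slc7a6os, are genes named for lying opposite a carrier gene. The symbols also take in carriers with other substrates, such as the monoamine transporters Slc6a2, Slc6a3 and Slc6a4, the creatine transporter Slc6a8 and the betaine transporter Slc6a12. They were measured by RNA-Seq in mouse oocytes collected on both sides of the pubertal transition, and the question was how the transporter transcripts of the oocyte differ with the age and weight of the mouse and with meiotic competence, the ability to resume and complete meiosis.

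Each of 4 cohorts of female CD-1 mice, an outbred strain, gave 3 pools of 18 to 45 oocytes. The cohorts were postnatal day (PND) 13, PND 16 divided by body weight into PND 16 small and PND 16 large, and PND 40. No mouse received gonadotropins, and the oocytes were taken from antral follicles, stripped of cumulus cells by pipetting and kept in meiotic arrest. The study treats PND 16 large and PND 40 oocytes as competent and PND 13 and PND 16 small oocytes as non-competent, so competence was compared over 6 vs. 6 pools. The difference in competence between the PND 16 weight groups came from a small number of mice, and the study did not show those data. The study describes independent pools from 3 mice per condition, but the sample labels do not tie a pool to a mouse, so p-values measure the spread between pools. For competence no cohort term was fitted, so that spread, and the SD, include the difference between the cohorts of each group.

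Amino acids enter an oocyte through its own carriers and, while cumulus cells are attached, through gap junctions that pass on what those cells have taken up. Carriers of the Slc7 light chain group reach the cell surface only when bound to a heavy chain, Slc3a2 (CD98hc) or Slc3a1 (rBAT), and work as exchangers. Slc6a9 (GLYT1) imports glycine, which early mouse embryos use to control their volume, and Slc7a11 (xCT) imports cystine, a source of cysteine for glutathione. Slc38 carriers move small neutral amino acids such as glutamine and alanine, and Slc38a9 works as an arginine sensor at the lysosome.

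Promoter sequence was available for 48 of the 66 genes, from RefSeq on GRCm38.p6, as 300 bases that span 250 before to 50 after each annotated start. Shown are the window of Slc7a11, which holds 2 copies of a motif of the amino acid response, and those of 3 genes described below, Slc6a14 and Slc1a1, which were highest at PND 40, and Slc38a10, which was lower in competent oocytes. Capitals mark the motif TGATGNAA or its reverse complement, the core of the element at which C/EBP and ATF factors bind when amino acids are short. In Slc7a11 the copies begin 66 and 47 bases before the start. No such motif is in the other 3 windows, and each sequence is written 5′ to 3′ on the strand of its gene.
Slc7a11, chr3:50443564-50443863, minus strand: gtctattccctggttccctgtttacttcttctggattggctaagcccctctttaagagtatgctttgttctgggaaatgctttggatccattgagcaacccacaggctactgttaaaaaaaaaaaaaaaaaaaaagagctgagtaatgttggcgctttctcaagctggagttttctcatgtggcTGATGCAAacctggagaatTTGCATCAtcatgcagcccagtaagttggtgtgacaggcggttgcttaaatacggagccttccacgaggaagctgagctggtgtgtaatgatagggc
Slc6a14, chrX:21714650-21714949, plus strand: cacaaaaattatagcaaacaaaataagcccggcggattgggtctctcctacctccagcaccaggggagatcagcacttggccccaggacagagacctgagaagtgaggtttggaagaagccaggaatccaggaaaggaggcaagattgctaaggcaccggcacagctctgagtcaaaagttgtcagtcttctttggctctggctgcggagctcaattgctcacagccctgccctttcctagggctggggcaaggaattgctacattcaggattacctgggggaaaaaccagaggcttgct
Slc1a1, chr19:28834885-28835184, plus strand: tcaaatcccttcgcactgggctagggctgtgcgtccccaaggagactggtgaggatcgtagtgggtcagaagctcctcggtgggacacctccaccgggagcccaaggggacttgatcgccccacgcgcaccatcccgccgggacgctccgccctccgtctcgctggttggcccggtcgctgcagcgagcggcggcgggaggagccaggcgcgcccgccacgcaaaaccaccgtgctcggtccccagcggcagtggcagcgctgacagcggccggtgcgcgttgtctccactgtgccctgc
Slc38a10, chr11:120151302-120151601, minus strand: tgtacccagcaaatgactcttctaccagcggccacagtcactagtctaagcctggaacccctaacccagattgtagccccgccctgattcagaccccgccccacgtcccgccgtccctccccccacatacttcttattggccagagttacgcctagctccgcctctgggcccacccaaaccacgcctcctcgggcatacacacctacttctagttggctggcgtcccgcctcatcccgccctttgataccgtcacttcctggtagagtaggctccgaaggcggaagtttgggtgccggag

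On both strands, TGATGNAA was found in 5 of the 69 windows of the transporter genes (7.25%) and in 3.97% of all 32851 windows. The genes were Slc1a4, Slc6a21, Slc7a11 and Slc7a7. TAATTG, the element bound by the oocyte factor NOBOX, was in 10.1% of transporter windows vs. 8.0% of all, and lay 50 bases before a start of Slc6a9. The E-box CACGTG was in 13.0% vs. 7.15% and the TATA motif TATAAA in 8.7% vs. 13.6%. These are counts of letters and were not tested. G and C made up 44.7% of the Slc7a11 window, 52.7% of Slc6a14, 70.3% of Slc1a1 and 60.3% of Slc38a10, against a median of 52.7% over all windows.

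Between 17671193 and 27418358 reads were counted per pool, and expression is given as CPM, counts relative to the pool total after TMM scaling. All 12 oocyte markers were found in every pool, at a summed 15163 to 20191 CPM. The 15 granulosa cell markers were not at 0 in any pool either. Their summed level was 638 and 697 CPM in PND 13 pools 1 and 3 and 799 CPM in PND 16 small pool 2, against 222 to 380 CPM in the other pools. These 3 pools, all non-competent, had the highest levels of 10 of the 15 markers, among them Inha and Gja1. Cyp11a1, Cyp19a1, Esr2, Kitl and Nr5a2 did not follow. Esr2, at 74.2 to 148 CPM, and Nr5a2, at 87.9 to 146, were high in every pool. At PND 40 vs. PND 13, Cyp11a1 and Esr2 were called higher and Fshr and Kitl lower. Inha was at 2.34 CPM in PND 13 pool 2 and 4.42 in PND 16 small pool 1, below the 11.4 to 20.7 of the competent pools. Theca markers summed to 5.55 to 57.2 CPM, endothelial markers to 55.9 to 70.8 CPM and blood and immune markers to 0.518 to 2.72 CPM. Most of the endothelial sum was Pecam1, at 52.0 to 64.6 CPM, while Kdr was at 1.23 to 9.22 and Cdh5 at 0 to 0.143. Among theca markers, Hsd3b1 reached 50.1 CPM and Cyp17a1 at most 0.246. Transporters that had their highest values in the 3 pools high in granulosa markers are named below. The results of called genes are given with and without these pools, a choice made after the data were seen. Without them PND 13 keeps pool 2 alone and PND 16 small keeps pools 1 and 3, so a call can be lost through fewer pools. Against PND 13, only the log2 fold change is then given. The part of attached granulosa cells in those results was not tested.

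The oocyte held a few transporter transcripts at high level and many at trace level. Levels of different genes were compared as CPM per kilobase of exon length, averaged over the 12 pools. Slc6a9, the glycine transporter, led at 90.9 (range 73.3 to 105) and lay at the 98.2th percentile of 19220 genes with a length and at least 1 count. The cystine carrier Slc7a11 followed at 46.5 (36.2 to 55.0), then the proline transporter Slc6a7 at 35.8 (26.8 to 52.6) and the heavy chain Slc3a2 at 26.7 (22.5 to 30.9). These 4 made up 57.5% of the summed level of all 66 genes. The fifth was Slc7a6os at 22.5 (18.3 to 29.0), which is no carrier. Slc7a5 (LAT1, for large neutral amino acids) stood at 19.1 and the cationic amino acid carriers Slc7a2 and Slc7a1 at 13.8 and 11.0, on either side of the taurine transporter Slc6a6 at 11.5.

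**Figure D1:**
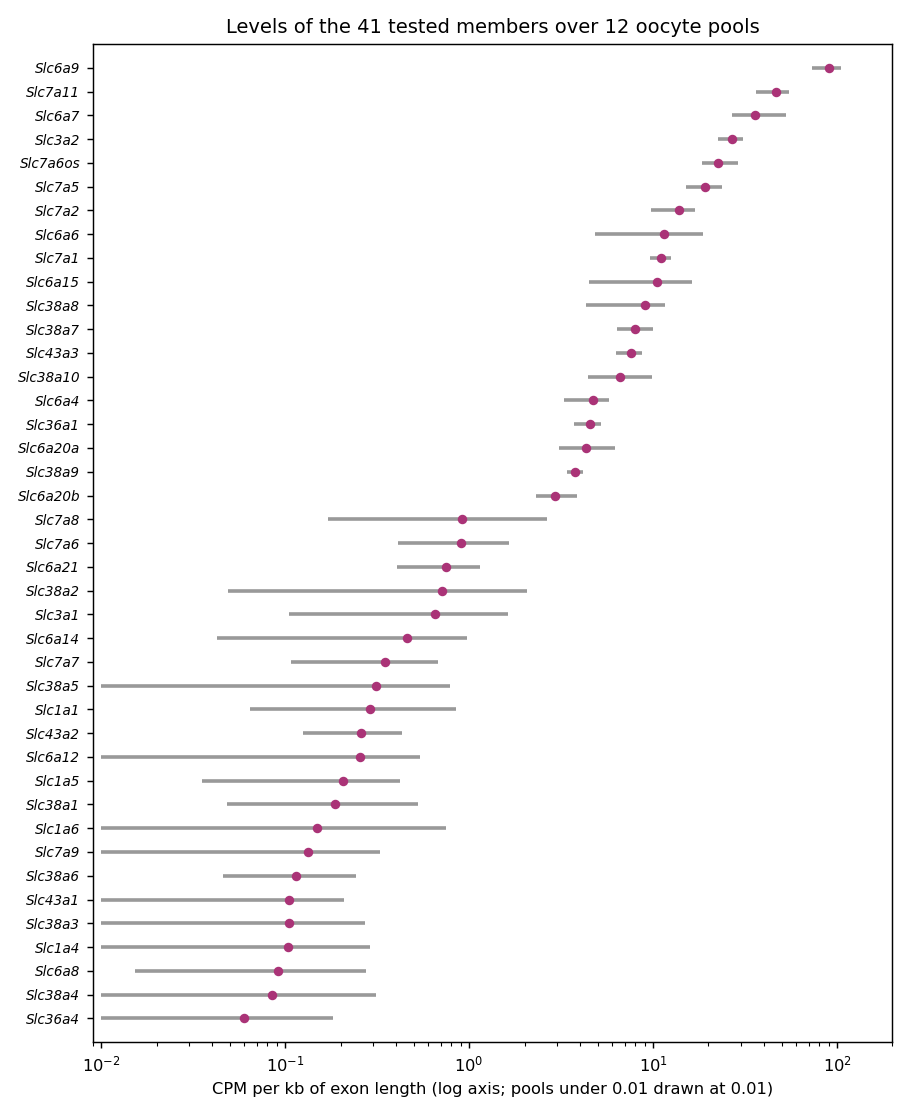
Level of the 41 tested genes in CPM per kilobase of exon length on a log axis. Points are means over 12 oocyte pools and bars run from the lowest to the highest pool. Slc6a9 leads at 90.9, and 19 genes sit well above the rest, from Slc6a9 down to Slc6a20b at 2.93.

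Slc6a9 lay above Slc7a11 in 12 of 12 pools and Slc7a5 above Slc7a2 in 12 of 12. Other neighbours changed places between pools. Slc7a11 lay above Slc6a7 in 9 of 12 pools, Slc6a7 above Slc3a2 in 11, and Slc6a6 above Slc7a1 in 6, so the order of that last pair was not settled by these pools. The summed level of the 66 genes was 2079 to 2222 CPM at PND 13, 2104 to 2378 in PND 16 small, 2362 to 2447 in PND 16 large and 2240 to 2384 at PND 40. The PND 13 pools were all below those of PND 16 large and PND 40, while PND 16 small overlapped with each other cohort.

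The filter on low counts kept 41 of the 66 genes for testing, among 13943 genes in all. A gene could pass it through a single cohort. Of the 41, 19 had a mean of at least 10 CPM and 22 less. The other 25 were not tested. No read was counted in any pool for 6 of them, such as Slc36a3 and Slc7a10, and the 3 counts that a count of 0 allows correspond to 0.11 to 0.178 CPM, depending on the pool. The highest untested value was 2.34 CPM, 49 counts of Slc7a4 in PND 13 pool 1, a pool high in granulosa markers.

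Genes were called differentially expressed by edgeR's quasi-likelihood test at an adjusted p of at most 0.05 and a change of at least 1.5-fold, with p-values adjusted over all 13943 genes. In PND 16 small vs. PND 13, no transporter gene was called, where 0.373% of all tested genes were (0.179% higher, 0.194% lower). At an unadjusted p under 0.05 there were 4, and the share of all genes at that p was not counted. DESeq2 called 1, where it called 361 of all 13943 genes. By the adjusted p alone 1 of 41 passed, as 0.925% of all genes did. In PND 16 large vs. PND 13, 3 of 41 were called (7.32%), against 13.3% of all genes. Of the 3, 1 was higher, where 3.52% of all genes were, and 2 lower, where 9.8% were. In PND 40 vs. PND 13 there were 8 (19.5%), near the 18.9% of all genes. Of these, 4 were higher and 4 lower, where 6.31% and 12.6% of all genes were. Scaling by total counts also gave 8 (all genes 18.9%), of which 6 were among these, with 2 higher and 6 lower.

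Within PND 16, 2 genes differed between large and small (4.88%, all genes 6.19%), 1 higher and 1 lower, where 1.43% and 4.76% of all genes were. In PND 40 vs. PND 16 small there were 5 (12.2%, all genes 17.2%), 4 of them higher, where 6.89% of all genes were, and 1 lower, where 10.3% were. In PND 40 vs. PND 16 large there were 2 (4.88%, all genes 3.66%), 1 higher and 1 lower, where 2.34% and 1.32% of all genes were. In competent vs. non-competent oocytes 7 were called (17.1%), near the 15% of all genes. Of those, 2 were higher, where 3.78% of all genes were, and 5 lower, where 11.2% were. Without the 3 pools high in granulosa markers, 3 were called in the competence comparison (2 higher, 1 lower). Of all genes, 10.7% were then called, also fewer than with all pools. PND 13 was left with a single pool, so no count is given for its comparisons. These comparisons share cohorts and are not independent.

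By adjusted p alone, 6 of the 41 genes differed in PND 16 large vs. PND 13, where 25.6% of all genes did. In PND 40 vs. PND 13 there were 11, where 33.1% did. There were 4 between the PND 16 cohorts (all genes 12.3%), 9 in PND 40 vs. PND 16 small (30.2%) and 2 in PND 40 vs. PND 16 large (6.83%). With competence there were 10, where 30.7% of all genes passed. Slc7a6os, which is no carrier, is in each of these counts except that of PND 40 vs. PND 16 large.

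The median log2 fold change over the 41 was -0.25 in PND 16 large vs. PND 13 (all genes -0.04) and -0.01 in competent vs. non-competent oocytes (all genes -0.0046). In the other 5 comparisons it lay between -0.11 and 0.02. In all, 14 genes were called in at least 1 comparison and 27 in none. Every pool of a cohort lay on one side of every pool of the other for 20 of the 41 in PND 40 vs. PND 13 (48.8%, all genes 50.8%) and for 18 in PND 40 vs. PND 16 large (43.9%, all genes 39.3%). It held for 12 in PND 16 large vs. PND 13 (29.3%, all genes 45.5%), 13 in PND 40 vs. PND 16 small (31.7%, all genes 43.9%), 6 between the PND 16 cohorts (14.6%, all genes 31.5%) and 3 in PND 16 small vs. PND 13 (7.32%, all genes 18.1%). In competent vs. non-competent oocytes this held for 2, Slc6a9 and Slc7a6os (4.88%, all genes 14.7%).

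**Figure D2:**
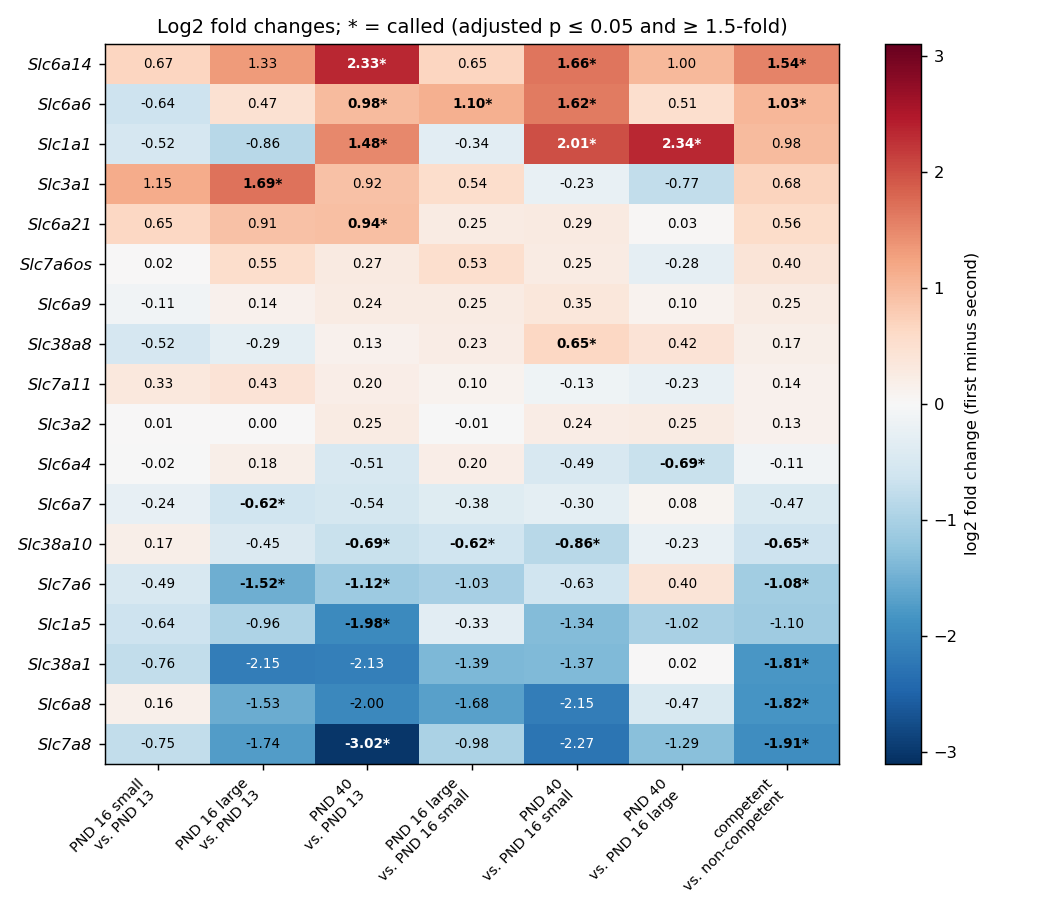
Log2 fold change of 18 genes, the 14 called in at least 1 comparison and the 5 of highest level (Slc6a7 is both), in the 7 comparisons of edgeR's quasi-likelihood test. Red is higher and blue lower in the group named first, and an asterisk marks a call. Slc6a6 and Slc38a10 each carry 4 asterisks, in opposite directions.

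Slc6a6 (TauT), the carrier for taurine and beta-alanine, rose between the 2 PND 16 cohorts and was highest at PND 40. The gene lies on chromosome 6 (GRCm38, 91684053 to 91759066, plus strand). Its level was 72.8, 66.8 and 93.9 CPM at PND 13, 44.3, 64.7 and 40.9 in PND 16 small, 112, 118 and 93.3 in PND 16 large, and 158, 155 and 148 at PND 40. The PND 40 pools were the 3 highest and those of PND 16 small the 3 lowest, while the highest PND 13 pool reached just above the lowest of PND 16 large. Slc6a6 rose 1.10 on the log2 scale from PND 16 small to PND 16 large (SE 0.168, adjusted p = 0.0028) and was higher at PND 40 than in PND 16 small by 1.62 (SE 0.170, adjusted p = 6.61e-05) and than at PND 13 by 0.98 (SE 0.166, adjusted p = 0.00089). Competent oocytes had 131 ± 26.6 CPM and non-competent ones 63.9 ± 19.5 (SD, n = 6 each), a log2 fold change of 1.03 (SE 0.195, adjusted p = 0.00166). PND 40 vs. PND 16 large (0.51, SE 0.165, adjusted p = 0.084) and PND 16 small vs. PND 13 (-0.64, SE 0.167, adjusted p = 0.0741) did not pass the test. All 4 calls held when each of the 12 pools was left out in turn, with log2 fold changes in competent oocytes of 0.92 to 1.17. Ranges in parentheses below are likewise log2 fold changes over the 12 omissions. Without the 3 pools high in granulosa markers the change in competent oocytes was 1.37, and the calls with competence and against PND 16 small held. The exons of Slc6a6 overlap those of Gm44981 on the other strand.

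The other carriers of this branch were scarce. Slc6a8, for creatine, was at 1.43, 0.234 and 0.450 CPM at PND 13, 0.292, 0.758 and 1.30 in PND 16 small, 0.123, 0.513 and 0.0796 in PND 16 large, and 0.172, 0.119 and 0.220 at PND 40. The groups overlapped, and the competent values rest on 2 to 13 counts per pool. Slc6a8 was lower in competent oocytes (log2 fold change -1.82, SE 0.608, adjusted p = 0.034). That call held without PND 13 pool 2 or 3, PND 16 large pool 2 or PND 16 small pool 1, and was lost without any other single pool (-2.33 to -1.53). It was lost too without the 3 pools high in granulosa markers (-1.52).

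**Figure D3:**
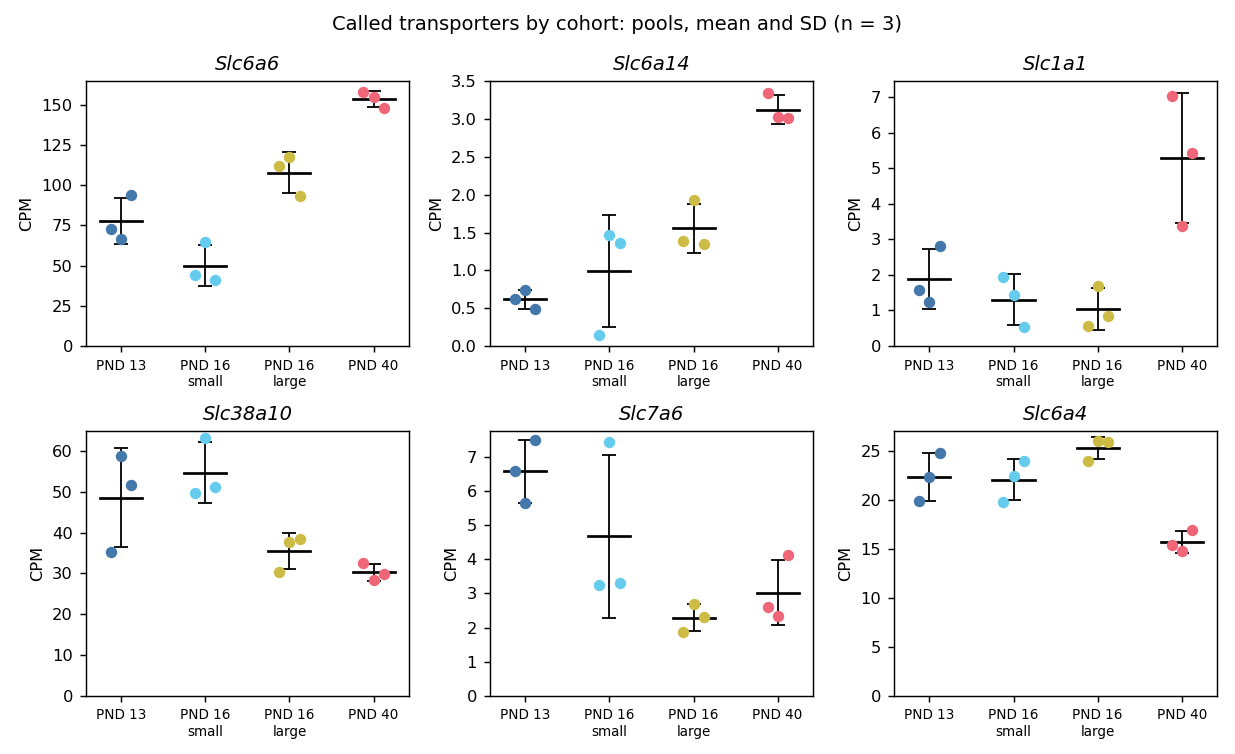
CPM of 6 called genes by cohort on linear axes from 0. Points are single pools (3 per cohort), the wide bar is their mean and the whiskers 1 SD. Slc6a6 reaches 148 to 158 CPM at PND 40, Slc6a14 and Slc1a1 are highest there, and Slc6a4 is lowest there.

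Slc6a9 and Slc6a7, for glycine and proline, were the most abundant of the Slc6 family. Slc6a5, grouped with them, had at most 4 counts in a pool and was not tested. Slc6a9 was at 431, 453 and 445 CPM at PND 13, 406, 450 and 377 in PND 16 small, 477, 493 and 501 in PND 16 large, and 538, 502 and 536 at PND 40. All 6 competent pools lay above all 6 non-competent ones. The difference, 508 ± 24.5 vs. 427 ± 30.1 CPM, passed the adjusted p but stayed under 1.5-fold (log2 fold change 0.25, SE 0.0594, adjusted p = 0.00581). PND 40 exceeded PND 16 small by 0.35 on the log2 scale (SE 0.0694, adjusted p = 0.00208), also under the fold criterion. Its exons overlap those of B4galt2, Ccdc24 and Gm17114 on the other strand.

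Slc6a7, the proline transporter, ran the other way. It was at 165, 176 and 125 CPM at PND 13, 181, 115 and 96.7 in PND 16 small, 107, 97.1 and 98.2 in PND 16 large, and 92.3, 115 and 112 at PND 40. The PND 13 pools lay above all competent pools, but PND 16 small spread over nearly the whole range. In competent oocytes Slc6a7 was lower at the adjusted p but under 1.5-fold (log2 fold change -0.47, SE 0.139, adjusted p = 0.0201). It was called lower in PND 16 large vs. PND 13 only (log2 fold change -0.62, SE 0.204, adjusted p = 0.0452). This call was lost without PND 13 pool 1 or 2, without PND 16 small pool 2 and without any single pool of PND 16 large or PND 40 (-0.76 to -0.54). Without the 3 pools high in granulosa markers, and so with a single PND 13 pool, it was -0.80.

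Among the Slc6 carriers of neutral and cationic amino acids, Slc6a14 had its lowest mean at PND 13 and its highest at PND 40, though never abundant. Its level was 0.621, 0.742 and 0.491 CPM at PND 13, 0.146, 1.47 and 1.36 in PND 16 small, 1.39, 1.93 and 1.35 in PND 16 large, and 3.35, 3.03 and 3.01 at PND 40. The PND 40 pools, with 76 to 82 counts each, stood above all others, and PND 16 small overlapped with PND 16 large. It was higher at PND 40 than at PND 13 by 2.33 (SE 0.587, adjusted p = 0.00835) and than in PND 16 small by 1.66 (SE 0.571, adjusted p = 0.042), and in competent oocytes by 1.54 (SE 0.450, adjusted p = 0.018), on the log2 scale. Against PND 16 large the difference was 1.00 (SE 0.551, adjusted p = 0.312) and did not pass. The first and the last of the calls held whichever pool was left out, while that against PND 16 small was lost without PND 13 pool 1 and without any single pool of PND 16 large or PND 40 (1.14 to 2.08). Without the 3 pools high in granulosa markers the log2 fold changes were 2.07, 2.09 and 1.66. The first rested on a single PND 13 pool. That against PND 16 small was called and that with competence was not.

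Slc6a21, an orphan of this branch, was at 2.01, 1.56 and 1.88 CPM at PND 13, 3.35, 1.56 and 3.68 in PND 16 small, 3.97, 2.96 and 3.30 in PND 16 large, and 2.75, 3.31 and 4.41 at PND 40. Its PND 13 pools lay below all competent pools. It was called higher at PND 40 than at PND 13 (log2 fold change 0.94, SE 0.342, adjusted p = 0.0491), just inside the threshold, and this was lost without any single pool of those cohorts or of PND 16 large (0.74 to 1.09). Without the 3 pools high in granulosa markers, and so with a single PND 13 pool, it was 1.16. Slc6a15, a carrier of branched-chain amino acids and proline, ranged from 34.8 to 127 CPM and was not called in any comparison. Slc6a20a and Slc6a20b, near-identical copies for proline and betaine between which reads may be split, ranged from 12.5 to 25.4 and from 19.8 to 32.8 CPM and were not called. The 3 highest pools of Slc6a20b were the 3 high in granulosa markers.

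Slc6a4, the serotonin transporter, shares its family but not its substrate with these carriers. It was at 19.9, 22.4 and 24.8 CPM at PND 13, 19.8, 22.4 and 24.0 in PND 16 small, 24.0, 26.0 and 26.0 in PND 16 large, and 15.4, 14.8 and 16.9 at PND 40. PND 40 lay below every other pool, so the drop was between PND 16 large and PND 40, the 2 cohorts grouped as competent. It was called there (log2 fold change -0.69, SE 0.123, adjusted p = 0.00616), under every omission of a single pool, and without the 3 pools high in granulosa markers. Against PND 13 and PND 16 small the differences passed the adjusted p but not the fold criterion (-0.51 and -0.49).

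Of the Slc1 family, the glutamate and aspartate carrier Slc1a1 (EAAT3) set PND 40 apart from the 3 younger cohorts. It was at 1.58, 1.25 and 2.82 CPM at PND 13, 1.94, 1.42 and 0.534 in PND 16 small, 0.573, 1.70 and 0.836 in PND 16 large, and 7.03, 3.38 and 5.44 at PND 40. The lowest PND 40 pool lay above the highest of the others, which overlapped among themselves. On the log2 scale it was higher at PND 40 than in PND 16 large by 2.34 (SE 0.530, adjusted p = 0.0198), than in PND 16 small by 2.01 (SE 0.526, adjusted p = 0.0113) and than at PND 13 by 1.48 (SE 0.511, adjusted p = 0.039).

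The Slc1a1 calls leaned on single pools. Without PND 40 pool 1, the highest, none of the 3 was called. The call against PND 16 large was also lost without PND 16 large pool 1 or 3 or PND 40 pool 3 (2.05 to 2.89), and that against PND 13 without PND 13 pool 1 or 2, PND 16 large pool 3 or PND 40 pool 3 (1.23 to 1.90). Without the 3 pools high in granulosa markers, the difference from the single PND 13 pool left was 2.08, and the other 2 calls held. The exons of Slc1a1 overlap those of 4430402I18Rik on the other strand.

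The neutral amino acid exchanger Slc1a5 (ASCT2), which carries glutamine in many cells, was near the limit of counting. It was at 1.34, 1.21 and 1.76 CPM at PND 13, 1.02, 0.569 and 1.19 in PND 16 small, 0.859, 0.908 and 0.438 in PND 16 large, and 0.300, 0.637 and 0.147 at PND 40. The PND 13 pools were the 3 highest. It was lower at PND 40 than at PND 13 (log2 fold change -1.98, SE 0.606, adjusted p = 0.0235), a call lost without PND 13 pool 3 or PND 40 pool 1 or 3 (-2.66 to -1.60). Without the 3 pools high in granulosa markers, and so with a single PND 13 pool, the change was -1.73. PND 40 held 4 to 16 counts of it per pool.

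Of the heteromeric transporters, those of high level varied little. Slc7a11, the cystine and glutamate exchanger, was at 616, 503 and 517 CPM at PND 13, 590, 701 and 765 in PND 16 small, 752, 735 and 715 in PND 16 large, and 558, 638 and 679 at PND 40. PND 16 large lay above PND 13 and PND 40, and PND 16 small overlapped with all. Its rise in PND 16 large vs. PND 13 passed the adjusted p but not the fold criterion (log2 fold change 0.43, SE 0.104, adjusted p = 0.00951), and no other comparison passed either.

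The heavy chain Slc3a2 was at 87.7, 93.6 and 88.7 CPM at PND 13, 79.4, 106 and 86.2 in PND 16 small, 88.5, 86.4 and 95.4 in PND 16 large, and 103, 109 and 109 at PND 40. The PND 40 pools lay above those of PND 13 and PND 16 large, and no comparison passed the adjusted p. Its partner Slc7a5 was at 73.7, 87.3 and 79.9 CPM at PND 13, 62.0, 55.9 and 56.5 in PND 16 small, 63.5, 70.3 and 63.8 in PND 16 large, and 79.0, 75.5 and 80.6 at PND 40. The 2 PND 16 cohorts were thus below the youngest and the oldest. Slc7a5 was lower than at PND 13 in PND 16 small (log2 fold change -0.47, SE 0.0874, adjusted p = 0.0318) and in PND 16 large (-0.29, SE 0.0870, adjusted p = 0.0282). It was higher at PND 40 than in PND 16 small (0.43, SE 0.0874, adjusted p = 0.00256), and all of these changes were under 1.5-fold. It was the only one of the 41 to pass the adjusted p between PND 16 small and PND 13.

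The second heavy chain, Slc3a1, which pairs with the cystine and dibasic amino acid carrier Slc7a9, was at 0.239, 0.860 and 1.02 CPM at PND 13, 0.875, 1.47 and 2.43 in PND 16 small, 1.35, 3.71 and 1.87 in PND 16 large, and 1.20, 1.11 and 1.73 at PND 40. PND 13 lay below PND 16 large and PND 40. Slc3a1 was called higher in PND 16 large vs. PND 13 (log2 fold change 1.69, SE 0.577, adjusted p = 0.0461). The call held only without PND 16 small pool 1 or 3, being lost in the other 10 omissions (1.16 to 2.04). Without the 3 pools high in granulosa markers, and so with a single PND 13 pool, the log2 fold change of Slc3a1 was 1.43. Its exons overlap those of Prepl on the other strand. Slc7a9 ranged from 0 to 0.875 CPM and was not called.

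The light chain Slc7a6 (y+LAT2), an exchanger of arginine for glutamine and other neutral amino acids, fell. It was at 6.59, 5.67 and 7.49 CPM at PND 13, 3.26, 7.44 and 3.32 in PND 16 small, 1.88, 2.68 and 2.31 in PND 16 large, and 2.62, 2.35 and 4.12 at PND 40. All PND 13 pools lay above all competent pools, while PND 40 pool 3 exceeded 2 of the PND 16 small pools. Compared with PND 13, it was lower in PND 16 large (log2 fold change -1.52, SE 0.350, adjusted p = 0.00711) and at PND 40 (-1.12, SE 0.344, adjusted p = 0.0241), and lower in competent oocytes (-1.08, SE 0.264, adjusted p = 0.00681). The call at PND 40 was lost without PND 13 pool 1 or 3 or PND 40 pool 1 or 2 (-1.40 to -0.96), and the other 2 held under every such omission. Its 3 highest pools were the 3 high in granulosa markers, and without them the log2 fold changes were -1.30, -0.90 and -0.62. The last, with competence, was not called, and the others rested on a single PND 13 pool.

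Slc7a8 (LAT2, for neutral amino acids) moved with the granulosa markers as well. It was at 12.2, 1.95 and 13.3 CPM at PND 13, 1.21, 12.8 and 2.19 in PND 16 small, 3.07, 2.92 and 2.23 in PND 16 large, and 0.858, 1.39 and 1.10 at PND 40. The 3 pools above 12 CPM were PND 13 pools 1 and 3 and PND 16 small pool 2, and the other non-competent pools lay below all of PND 16 large. With all pools, Slc7a8 was lower at PND 40 than at PND 13 (log2 fold change -3.02, SE 0.905, adjusted p = 0.0273) and in competent oocytes (-1.91, SE 0.611, adjusted p = 0.0302). Without those 3 pools the changes were -0.80, from a single PND 13 pool, and 0.12, which was not called. Leaving out PND 13 pool 1 or 3 or any PND 40 pool ended both calls (-3.53 to -2.65 and -2.13 to -1.65), and leaving out PND 16 small pool 2 or PND 16 large pool 3 ended that in competent oocytes. In a pool, a change in the number of granulosa cells cannot be told apart from a change in the RNA per cell.

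**Figure D4:**
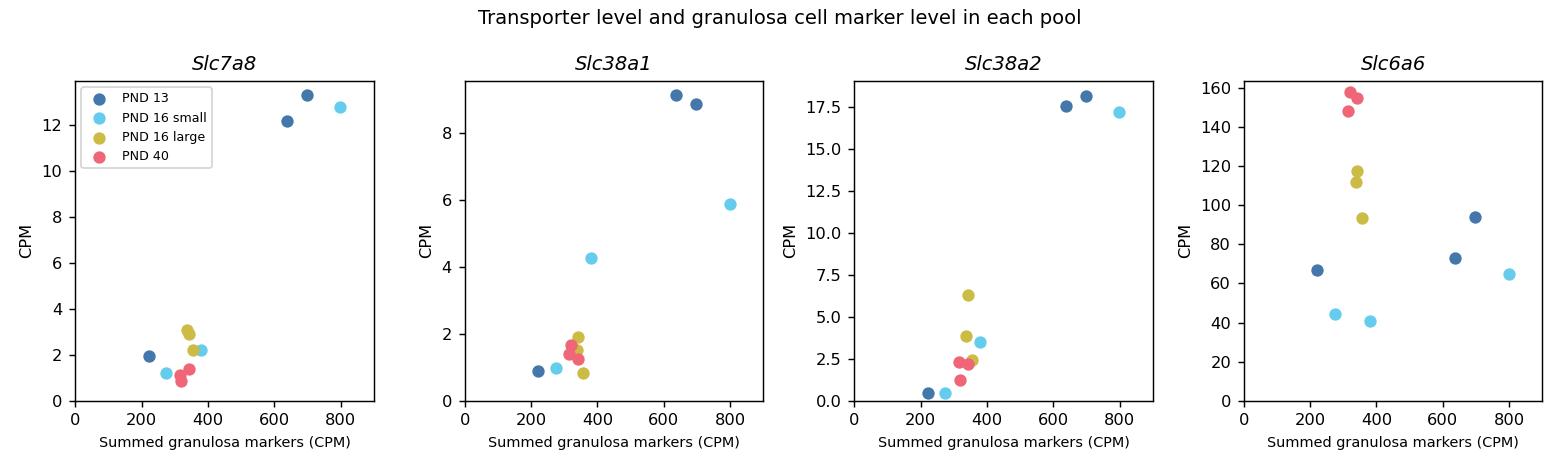
CPM of 4 transporter genes in each of 12 pools against the summed CPM of 15 granulosa cell markers in the same pool. For Slc7a8, Slc38a1 and Slc38a2 the 3 pools with 638 to 799 CPM of markers are the 3 highest, whereas Slc6a6 is highest at PND 40, where the markers sum to 315 to 343 CPM.

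Of the sodium-coupled neutral carriers of the Slc38 family, 2 were also highest in these pools. Slc38a1 (SNAT1), a glutamine carrier, was at 9.12, 0.899 and 8.84 CPM at PND 13, 0.972, 5.88 and 4.27 in PND 16 small, 1.51, 1.89 and 0.836 in PND 16 large, and 1.67, 1.23 and 1.40 at PND 40. Its 3 highest pools were again PND 13 pools 1 and 3 and PND 16 small pool 2. It was lower in competent oocytes (log2 fold change -1.81, SE 0.514, adjusted p = 0.0164), under each omission of 1 pool but not without those 3 pools (-0.50). Slc38a2 (SNAT2), which cells make more of when amino acids are short, spanned 0.430 to 18.2 CPM in the same pattern, with 17.2 to 18.2 CPM in the 3 pools and at most 6.27 in the rest. It was not called in any comparison. In all, 5 of the 41 genes had their 3 highest values in those pools, Slc38a1, Slc38a2, Slc6a20b, Slc7a6 and Slc7a8 (12.2%), as had 4.44% of all tested genes. Slc38a3, the carrier known from cumulus cells, was at 0 to 1.43 CPM and followed this pattern in part. Its highest pool was PND 13 pool 1, high in granulosa markers, but PND 40 pools 1 and 2 came next (1.03 and 0.876 CPM). No read of it was counted in PND 13 pool 2 and PND 16 small pool 1, the pools lowest in granulosa markers.

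Slc38a10, an Slc38 member found inside cells, fell too. Its 3 highest pools were PND 16 small pool 2, PND 13 pool 2 and PND 13 pool 3, of which the first and last were high in granulosa markers. It was at 35.2, 58.8 and 51.7 CPM at PND 13, 49.8, 63.2 and 51.1 in PND 16 small, 30.4, 37.7 and 38.4 in PND 16 large, and 32.4, 28.3 and 29.9 at PND 40. PND 16 small lay above all competent pools, and PND 13 pool 1 lay among them. It was lower at PND 40 than in PND 16 small (log2 fold change -0.86, SE 0.170, adjusted p = 0.00222) and than at PND 13 (-0.69, SE 0.169, adjusted p = 0.00741), lower in PND 16 large than in PND 16 small (-0.62, SE 0.169, adjusted p = 0.0301), and lower in competent oocytes (-0.65, SE 0.128, adjusted p = 0.00167). Competent oocytes had 32.9 ± 4.24 CPM and non-competent ones 51.6 ± 9.56.

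The first and the last of these Slc38a10 calls held in every omission. That between the PND 16 cohorts was lost without any PND 16 large pool or PND 16 small pool 2 or 3 (-0.68 to -0.50), and without the 3 pools high in granulosa markers (-0.50), and that against PND 13 was lost without PND 13 pool 2 (-0.87 to -0.55). The exons of Slc38a10 overlap those of Gm11769 on the other strand. Slc38a8, a glutamine carrier, was at 29.3, 40.0 and 35.7 CPM at PND 13, 32.7, 25.3 and 15.1 in PND 16 small, 31.7, 27.4 and 26.6 in PND 16 large, and 40.4, 39.8 and 34.9 at PND 40. Its PND 40 pools lay above PND 16 small and PND 16 large and overlapped with PND 13. It was called in PND 40 vs. PND 16 small only (log2 fold change 0.65, SE 0.215, adjusted p = 0.0359), which was lost in 7 of 12 omissions, those of PND 16 large pool 2 or 3, PND 16 small pool 2 or 3 and any PND 40 pool (0.40 to 0.92), and without the 3 pools high in granulosa markers (0.68).

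Several further carriers were of middle level. Slc38a9, the lysosomal arginine sensor, was at 56.9 to 69.8 CPM over all 12 pools, and the largest of its 7 log2 fold changes was 0.10. Slc36a1, a proton-coupled carrier of lysosome and plasma membrane, was at 20.9 to 29.4 CPM, and Slc43a3, which carries purine bases, at 28.1 to 38.7. The cationic amino acid carriers Slc7a1 and Slc7a2 were at 111 to 144 and 89.1 to 155 CPM. Slc38a7 was at 26.5 to 41.6 CPM. None of these 6 was called in any comparison, though some cohorts did not overlap. All Slc7a1 pools of PND 16 large lay above PND 13, and those of PND 40 below both PND 16 cohorts. At PND 40, Slc38a7 lay below PND 13 and PND 16 large, and Slc7a2 below PND 16 small.

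Slc7a6os, named for lying opposite Slc7a6, encodes a protein that is not a carrier. It was at 85.3, 79.2 and 78.7 CPM at PND 13, 77.4, 90.9 and 78.7 in PND 16 small, 122, 122 and 111 in PND 16 large, and 105, 93.7 and 94.3 at PND 40. All competent pools lay above all non-competent ones, the reverse of the direction of Slc7a6 itself. The difference passed the adjusted p but stayed under 1.5-fold (log2 fold change 0.40, SE 0.0804, adjusted p = 0.00189). In the annotation the exons of Slc7a6os and Slc7a6 do not overlap.

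By role, the calls in competent vs. non-competent oocytes fell on 2 of 6 tested light chains (Slc7a6 and Slc7a8, lower), 2 of 10 Slc38 carriers (Slc38a1 and Slc38a10, lower), 2 of 3 of the Slc6 branch for taurine, creatine and betaine (Slc6a6 higher, Slc6a8 lower) and 1 of 5 of the Slc6 branch for neutral amino acids (Slc6a14, higher). No call fell on the 2 heavy chains, the 2 cationic carriers, the 4 tested genes of Slc1, the 2 of Slc36 or the 3 of Slc43. Of all tested genes 15% were called in this comparison, and the groups are too small to set against that share.

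Genes around amino acid transport were counted in 3 lists. Of 23 tested carriers of other families, such as those of vesicles and mitochondria, 4 were called in competent vs. non-competent oocytes (17.4%, all genes 15%), 2 higher and 2 lower, with a median log2 fold change of -0.03. Slc25a13, a mitochondrial aspartate and glutamate carrier, was higher at 61.4 ± 3.85 vs. 37.5 ± 8.80 CPM (log2 fold change 0.71, SE 0.132, adjusted p = 0.0012). The vesicular glutamate carrier Slc17a8 was also higher, at 3.96 ± 2.14 vs. 0.985 ± 0.480 CPM (2.00, SE 0.400, adjusted p = 0.00193). Sfxn2, a mitochondrial membrane protein, was lower at 1.95 ± 0.667 vs. 4.14 ± 0.936 CPM (-1.08, SE 0.244, adjusted p = 0.0043). Over the pairwise comparisons this list had 6 calls in PND 16 large vs. PND 13 (3 higher, 26.1%, all genes 13.3%), 6 in PND 40 vs. PND 13 (3 higher, 26.1%, all genes 18.9%) and 7 in PND 40 vs. PND 16 small (4 higher, 30.4%, all genes 17.2%). There were 2 between the PND 16 cohorts (both higher, 8.7%, all genes 6.19%). In PND 40 vs. PND 16 large there was 1 (higher, 4.35%, all genes 3.66%). PND 16 small vs. PND 13 had 0 (all genes 0.373%), and 9 with an unadjusted p under 0.05 by edgeR. The share of all genes at that unadjusted p was not counted.

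Of 29 tested genes that sense amino acids at the lysosome and relay them to mTORC1, 1 was called with competence, lower in competent oocytes (3.45%, all genes 15%). The list had 3 calls in PND 16 large vs. PND 13 (all lower, 10.3%, all genes 13.3%), 2 in PND 40 vs. PND 13 (1 higher, 6.9%, all genes 18.9%), 1 between the PND 16 cohorts (lower, 3.45%, all genes 6.19%) and none in the other pairs. In the pairs where none was called, 0.373%, 17.2% and 3.66% of all genes were. At an unadjusted p under 0.05, edgeR gave 3 genes in PND 16 small vs. PND 13. It gave 8 in PND 40 vs. PND 16 small and 5 in PND 40 vs. PND 16 large. The share of all genes at that unadjusted p was not counted.

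Of 20 tested genes of the GCN2 and ATF4 response to amino acid shortage, 3 were called with competence (15%, the same as the 15% of all genes), all lower, while the median log2 fold change of the list was 0.09. Chac1, which breaks down glutathione, was at 2.63 ± 0.524 vs. 6.22 ± 1.28 CPM (-1.24 on the log2 scale, SE 0.195, adjusted p = 0.0004). Impact, which restrains GCN2, was at 12.8 ± 4.17 vs. 23.4 ± 4.64 CPM (-0.87, SE 0.204, adjusted p = 0.00525). Psph, the last enzyme of serine synthesis, was at 1.99 ± 0.478 vs. 4.11 ± 1.41 CPM (-1.04, SE 0.270, adjusted p = 0.00952). The pairwise counts were 2 in PND 16 large vs. PND 13 (both lower, 10%, all genes 13.3%), 3 in PND 40 vs. PND 13 (all lower, 15%, all genes 18.9%) and 5 in PND 40 vs. PND 16 small (3 higher, 25%, all genes 17.2%). There were 2 between the PND 16 cohorts (1 higher, 10%, all genes 6.19%). In PND 40 vs. PND 16 large there was 1 (lower, 5%, all genes 3.66%). PND 16 small vs. PND 13 had 0 (all genes 0.373%), and 3 with an unadjusted p under 0.05 by edgeR. The share of all genes at that unadjusted p was not counted.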

How the data were processed

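Oocyte RNA was sequenced from 12 pools, 3 in each of 4 cohorts. For 24562 genes, the authors deposited counts of reads per gene and pool with no normalization. Libraries were directional and depleted of ribosomal RNA. The submitters' processing notes name FastQC, STAR, HTSeq, HOMER, DESeq2 and mm10 without versions. The strand setting of the counting is not given in the sources used here. Exon overlaps on the other strand are therefore marked above for called genes and those of highest level. Other genes named with levels overlap too: Slc38a9 (with Gm47827), Slc7a2 (Gm26584), Slc6a20a (Ccr9, Gm17120 and Gm17200), Slc6a20b (Sacm1l), Slc7a4 (P2rx6) and Slc7a10 (Lrp3). A normalized log2 table deposited beside the counts was not used. All columns matched a sample label (0 unmatched).

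Genes were kept by filterByExpr of edgeR 4.0.16 (R 4.3.3, minimum count 10), pools were scaled by TMM (factors 0.955 to 1.07), and robust quasi-likelihood models were fitted to 4 cohorts or, for competence, 2 groups. p-values were adjusted by Benjamini-Hochberg over 13943 genes. SE was taken as the size of the log2 fold change over the root of its F statistic. The models were tested on simulated data. Exon lengths and positions are from GENCODE M21 (GRCm38) and promoters from RefSeq. Alternatives were DESeq2 1.42.0, other scalings and filters, only the pools compared, no fold criterion, a replicate block and leaving out each pool. Reads carry no molecular identifiers, and limits from counts cover counting error only. Pools of a cohort differed by more than sampling noise (chi-square per gene 9.17 to 50.6).

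Values are given for each gene called in at least 1 comparison, the 5 genes of highest level per kilobase, and at most 3 called genes per list with the lowest adjusted p. Others named, such as Slc7a5 and Slc38a2, were chosen after their values were seen. The members and lists were chosen with earlier results of these data known. Results for some genes are not reported here.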

Additional observations from a re-analysis of the deposited data

Results flagged for a closer look

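Among 18 transporter genes, each in its 6 competent and its 6 non-competent pools (36 groups), 3 groups held a pool that stood apart from the other 5 by Dixon's criterion, and chance alone marks about 1 group in 20. Slc3a1, the heavy chain rBAT, was at 3.71 CPM in PND 16 large pool 2 and at 1.11 to 1.87 in the other competent pools. Slc6a8, the creatine transporter, was at 0.513 CPM in the same pool and at 0.0796 to 0.220 in the others. Slc7a6, the light chain y+LAT2, was at 4.12 CPM in PND 40 pool 3 and at 1.88 to 2.68 in the others.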

How the results depend on the processing

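With PND 13 as reference, then PND 16 small, then PND 16 large, each against the older or larger cohorts in turn, and competence last, the called transporter genes numbered 0, 3, 8, 2, 5, 2 and 7. Single pools left out gave 0 to 1, 1 to 6, 4 to 10, 1 to 3, 2 to 6, 1 to 2 and 5 to 9. In PND 40 vs. PND 13 the count was 4 without PND 13 pool 1 or PND 40 pool 1 and 5 without PND 13 pool 3 or PND 40 pool 3. In PND 16 large vs. PND 13 it was 1 without any PND 16 large pool or PND 40 pool 2, 6 without PND 16 small pool 1 and 5 without its pool 2. In PND 16 large vs. PND 16 small it was 1 without any PND 16 large pool or PND 16 small pool 3. In PND 40 vs. PND 16 small it was 2 without PND 40 pool 1 and 3 without PND 40 pool 3 or PND 16 large pool 2 or 3, and in PND 40 vs. PND 16 large 1 without pool 1 or 3 of either cohort. In PND 16 small vs. PND 13 it was 1 without PND 16 small pool 1 or 2. For these omissions the share of all genes is not given. DESeq2 called 1 and 6 genes in the first 2 of these comparisons, where it called 361 and 2170 of all 13943 genes. Without the fold criterion the counts were 1, 6 in the first 2 comparisons, 4 within PND 16, and 9 for PND 40 vs. PND 16 small. Of all genes, 0.925%, 25.6%, 12.3% and 30.2% then passed. Slc7a6os, which is no carrier, is in all but the first of these counts. A fit of only the 6 pools compared called 3 in PND 40 vs. PND 16 small and 4 in PND 40 vs. PND 16 large. Of all genes tested it called 2010 of 13089 and 1081 of 13201. Without the 3 pools high in granulosa markers, chosen after seeing the data, the counts were 4 in PND 16 large vs. PND 16 small and 3 with competence. Of all genes, 7.97% and 10.7% were then called. The log2 fold change of Slc7a8 with competence turned to 0.12. PND 13 was then left with a single pool, so its counts are not given. The cause of these shifts was not tested. Pools that share a replicate number did not deviate together (correlations -0.44 to 0.075), and the main fit did not pair them. With 3 pools per cohort, these correlations cannot exclude a pairing. With a replicate block the counts were 0, 4, 6, 2, 5, 2 and 5. Of all 13943 genes, 10, 1637, 2419, 732, 2236, 392 and 1848 were then called. Scaling by total counts moved the all-gene median most in PND 16 small vs. PND 13 (a shift of -0.098 on the log2 scale). Of 27 calls of single genes, 7 held under every setting, 15 were lost in at least 1 omission of a pool and 17 under at least 1 other setting. The other settings include leaving out the 3 pools high in granulosa markers, with a single PND 13 pool. The 7 calls that held were the 4 of Slc6a6, that of Slc6a4 and 2 of Slc38a10. The 3 pools per cohort and, for Slc6a8, Slc1a5 and Slc6a14, counts as low as 2 to 4 per pool limit the precision.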
